A study of Homo sapiens with 9 samples.

Results

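The genes described are 48 genes of autophagy and the lysosome, taken by symbol from the 58037 genes of an RPKM table (reads scaled to gene length and library size). Of these, 24 act in building the autophagosome or loading it with cargo, 14 encode lysosomal enzymes or their activators, and 10 encode lysosomal membrane proteins, cholesterol carriers or proton pump subunits. Total RNA was sequenced from 3 human breast cancer cell lines that the series calls triple-negative (MDA-MB-436, MDA-MB-231 and MDA-MB-453), cultured in DMEM with serum. Each line has 1 library labelled Control, 1 labelled GSK343 and 1 labelled shEZH2. A group thus holds 3 libraries, and the lines, as labelled, are its replicates. GSK343 is a compound that blocks EZH2, the enzyme of Polycomb repressive complex 2 that methylates lysine 27 of histone H3. The name shEZH2 stands for a short hairpin RNA against the transcript of the same gene. The sample labels give the controls as untreated, whereas the column headers name them shControl, so whether the controls carried a hairpin is not settled. Neither the dose and duration of GSK343 nor the hairpin sequence is given in the labels. The p-values for treatment below set a difference against the spread left among all 9 libraries once label and line are fitted. That spread mixes variation of the response between lines with differences between the GSK343 and shEZH2 libraries within a line. Those that compare lines rest on the differently labelled libraries of each line.

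Macroautophagy encloses cytoplasmic material in a double membrane, the autophagosome, which then fuses with a lysosome. The ULK kinase complex and a lipid kinase complex with BECN1 and ATG14 start the membrane, WIPI proteins and ATG2 extend it, and a conjugation system of ATG proteins attaches ATG8 proteins (the LC3 and GABARAP families) to its lipids. Receptors such as SQSTM1, NBR1 and OPTN bind both cargo and ATG8 proteins. Inside the lysosome, acid hydrolases work at a low pH that the vacuolar proton pump, the V-ATPase, maintains. The transcription factors TFEB, TFE3 and MITF bind a DNA element with the core CACGTG in many lysosomal gene promoters.

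Before the members are described, the labels were compared with known transcripts. EZH2 was at 27.4, 38.9 and 42.3 RPKM in the controls. The order is MDA-MB-231, then MDA-MB-436, then MDA-MB-453, and holds for every list of 3 values below. It was at 5.77, 7.53 and 7.99 RPKM in the libraries labelled GSK343 and at 16.4, 37.4 and 16.2 RPKM in those labelled shEZH2. EZH2 transcript was thus lowest under the label of the inhibitor rather than that of the hairpin, and the MDA-MB-436 library labelled shEZH2 was close to its control. The groups are therefore named by label throughout ("libraries labelled GSK343"), and the 6 libraries of both labels together are called the targeted libraries. ESR1 and PGR were at most 0.06 RPKM in any library. ERBB2 was between 6.25 and 11.1 RPKM. MDA-MB-453 is known as a line of luminal type, yet 0 of 10 genes of that type were highest under its label in all 3 conditions. Members under the MDA-MB-453 label lay between the values of the other lines for 24 of 47 tested members (51.1%) in the controls, 39 (83%) in the libraries labelled GSK343 and 40 (85.1%) in those labelled shEZH2. The shares over all genes tested were 47.1%, 73.8% and 83%. Whether the libraries labelled MDA-MB-453 are a line of their own is not settled. Where 3 lines are named below, lines by label are meant, and that number may overstate the replication. Counts are therefore given with and without the 3 libraries labelled MDA-MB-453.

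Depth was even, at 14757000 to 18283400 reads per library as recovered from the RPKM steps. The lowest library of each member held at least 63 reads, except for GABARAP with 14. Genes above 0 numbered 22975 to 23900 in the controls and 24430 to 27230 in the targeted libraries, and the part of this in the results was not tested. Of markers of other cells, PTPRC was at most 0.203 RPKM, CD68 at most 0.221, CDH5 at most 0.247 and DCN at most 0.0105. The summed RPKM of 3 leukocyte markers, most of it CD14, was 3.92 to 5.89 in the controls, 6.05 to 7.05 under the GSK343 label and 7.05 to 12.8 under the shEZH2 label. The summed RPKM of 2 endothelial markers was 0.277 to 0.322 in the controls, 0.135 to 0.514 under the GSK343 label and 0.274 to 1.13 under the shEZH2 label. For 3 fibroblast markers it was 0.765 to 2.998, 0.361 to 2.01 and 0.359 to 3.76. The summed RPKM of 6 mesenchymal markers, a cell state that these lines themselves can take, was lower in the targeted libraries of every line: 825 to 1215 in the controls, 550.1 to 849 under the GSK343 label and 559.7 to 874 under the shEZH2 label. Of these genes, AXL, CAV1 and VIM were below the control of the same line in every targeted library. CD44, MSN and ZEB1 were above it in the MDA-MB-231 library labelled shEZH2, and ZEB1 under both labels in MDA-MB-436. The part of these transcripts in the results was not tested. In bulk RNA a change in the share of a cell state and a change in RNA per cell cannot be told apart.

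In the targeted libraries compared with the controls of the same line, 23 of the 47 tested members rose and 0 fell (limma on log2(RPKM + 1), adjusted p under 0.05 over 12965 genes). Over all genes tested, 12.2% were higher and 4.3% lower by the same rule. The rise covered 8 of 23 autophagosome genes, 8 of 14 lysosomal enzyme genes and 7 of 10 membrane and pump genes. The median log2 fold change of the members was 0.43, against 0.05 over all genes tested. By role it was 0.16 for autophagosome genes, 0.57 for enzymes and 0.46 for membrane and pump genes. All 23 members that rose had a positive difference in each of the 3 lines, taken as the mean of both labels. A call in this fit makes such agreement likely, so it adds no support. By single label, GUSB under GSK343 (-0.02) and MCOLN1 under shEZH2 (-0.03) were not positive in MDA-MB-231. Of the 23, 6 rose at least 2-fold: TPP1, WIPI1, MAP1LC3A, PSAP, NEU1 and NPC1. The shares among all genes called higher were not counted for either property. At an unadjusted p under 0.05, 29 members were higher and 0 lower, where 21.8% of all genes tested were higher and 11.1% lower.

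Without the libraries labelled MDA-MB-453, 11 members passed, where 1.253% of 12452 genes did, and the members' median was 0.34. These 11 were all among the 23: WIPI1, MAP1LC3A, GABARAPL1, OPTN, MAP1LC3B, TPP1, PSAP, NEU1, NPC1, NPC2 and ATP6V1A. Fewer genes pass at all in that smaller fit, which has 2 residual degrees of freedom in place of 4.

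**Figure D1:**
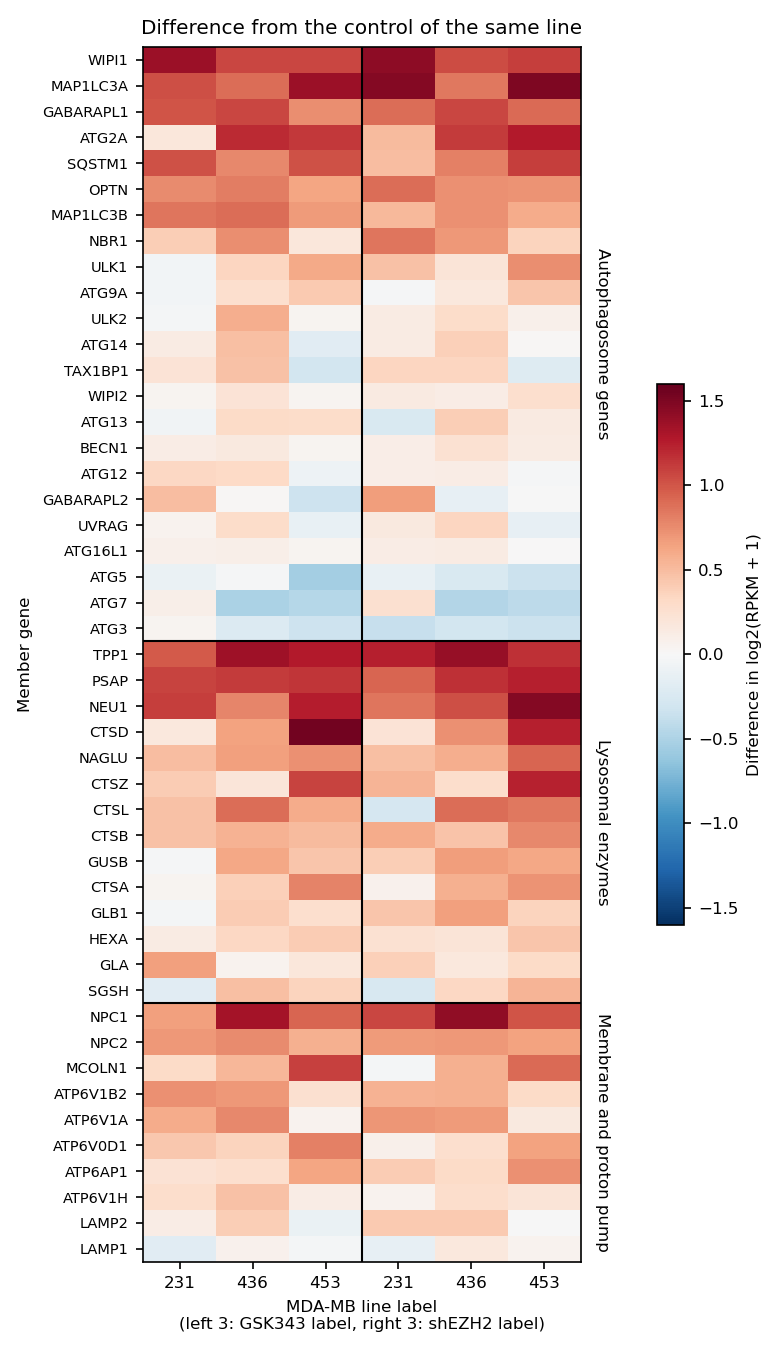
Difference in log2(RPKM + 1) between each library labelled GSK343 (left 3 columns) or shEZH2 (right 3 columns) and the control of the same line, for the 47 tested members in 3 roles, sorted within a role by the mean response; red is higher than the control, blue lower. TPP1, PSAP, WIPI1 and MAP1LC3A are red in all 6 columns, while ATG3, ATG5 and ATG7 are mostly blue and LAMP1 is near white.

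A smaller set had no overlap at all between groups. In 10 of the 48 members every one of the 6 targeted libraries was above all 3 controls (MAP1LC3B, ATG2A, OPTN, CTSA, HEXA, NEU1, NAGLU, TPP1, NPC1 and NPC2), and in 0 members were all below. Over the genes tested these shares were 4.57% and 2.14%. CTSA and HEXA did not pass the test despite this separation (adjusted p = 0.059 and 0.11, limma). CTSA, the protective protein of the lysosomal sialidase complex, was at 38.4, 34.8 and 25.5 RPKM in the controls and between 39.6 and 52.0 RPKM in the targeted libraries, with a difference of 0.06 on the log2 scale in MDA-MB-231. Of its exon bases 28.5% overlap other genes.

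The RefSeq promoter table (GRCh38.p14, 250 bases before to 50 after each start) held 37 of the 48 members. The core CACGTG, which reads the same on both strands, occurred in 8 of the 37 (21.6%), in 12.7% of tested genes with a promoter in the table and in 8.78% of all genes with one. The longer TCACGTG, on either strand and containing the first, occurred in the same 8 members and in 7.3% of tested genes, and the palindrome TCACGTGA in 5 members (13.5%) and 2.36% of tested genes. Among members that rose, 4 of 17 held the core, and among those that did not pass, 4 of 19. A match describes letters in a window and shows neither binding nor its absence. The windows below, 5′ to 3′ on the gene's strand with the core in capitals, are shown because they carry the core in members of different response, from NEU1, which rose by 1.08 on the log2 scale, to LAMP1 at -0.01.
MCOLN1: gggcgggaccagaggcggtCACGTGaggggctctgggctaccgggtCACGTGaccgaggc
NEU1: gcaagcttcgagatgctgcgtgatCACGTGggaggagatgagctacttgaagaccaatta
CTSD: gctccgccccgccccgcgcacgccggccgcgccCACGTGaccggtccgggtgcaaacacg
ATP6V0D1: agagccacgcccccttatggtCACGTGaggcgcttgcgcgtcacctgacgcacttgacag
CTSA: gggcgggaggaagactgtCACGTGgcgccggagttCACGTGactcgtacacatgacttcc
LAMP1: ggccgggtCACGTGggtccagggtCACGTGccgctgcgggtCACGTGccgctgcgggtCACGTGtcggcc
These windows lie at chr19:7522564-7522623 (MCOLN1, plus strand), chr6:31862912-31862971 (NEU1, minus), chr11:1763948-1764007 (CTSD, minus), chr16:67481178-67481237 (ATP6V0D1, minus), chr20:45891275-45891334 (CTSA, plus) and chr13:113297039-113297108 (LAMP1, plus), all upstream of the RefSeq start. LAMP1 held 6 cores in its whole promoter window, MCOLN1 and CTSA 2 each, and NEU1, CTSD and ATP6V0D1 1 each. The other members with a core were ATG3 and ATG14.

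Among autophagosome genes, 3 of the 5 ATG8 family members rose (MAP1LC3A, MAP1LC3B and GABARAPL1), GABARAPL2 did not pass and GABARAP was too low to test. MAP1LC3A (LC3A, chromosome 20, 34546854 to 34560345, plus strand) was at 2.61, 9.30 and 3.35 RPKM in the controls, 6.35, 18.2 and 10.2 under the GSK343 label and 8.97, 17.4 and 11.2 under the shEZH2 label. Every line was above its own control, but the control of MDA-MB-436 was higher than both targeted libraries of MDA-MB-231, so the groups overlapped. It rose by 1.18 ± 0.30 on the log2 scale of RPKM + 1 (95% confidence interval, n = 3 lines; adjusted p = 0.000576, limma), a 2.27-fold change. Errors of log2 fold changes are intervals of this kind throughout. The fit behind them counts every library separately, although both targeted libraries of a line share its control and line. Intervals and p-values for both labels together may therefore be too small for a sample of 3 lines.

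MAP1LC3B (LC3B, the family member most used as an autophagosome marker) was at 16.1, 20.5 and 19.6 RPKM in the controls, 29.9, 38.9 and 32.1 under the GSK343 label and 23.5, 34.7 and 30.1 under the shEZH2 label. All targeted libraries lay above all controls, and it rose by 0.71 ± 0.25 (adjusted p = 0.00303, limma). Its near-identical copy MAP1LC3B2 was at most 0.774 RPKM. GABARAPL1, which binds cargo receptors on the GABARAP side of the family, was at 4.09, 15.8 and 10.7 RPKM in the controls, 9.20, 34.2 and 18.6 under the GSK343 label and 8.49, 34.2 and 21.0 under the shEZH2 label. Levels differed more between lines than between treatments, with MDA-MB-231 lowest in all 3 conditions. Within lines it rose by 0.95 ± 0.26 (adjusted p = 0.000746, limma).

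GABARAPL2 was at 6.27, 8.40 and 8.65 RPKM in the controls, 9.27, 8.50 and 6.66 under the GSK343 label and 10.6, 7.55 and 8.62 under the shEZH2 label. It was above its control in MDA-MB-231 and not in the MDA-MB-453-labelled libraries, and its mean difference was 0.12 ± 0.34 (adjusted p = 0.632, limma). GABARAP itself was listed at 0.338 to 0.604 RPKM in the 9 libraries and was not tested: 0.369, 0.5 and 0.438 in the controls, 0.419, 0.426 and 0.604 under the GSK343 label, and 0.338, 0.372 and 0.504 under the shEZH2 label. These values stand for 14 to 21 reads, and 55.7% of its exon bases are shared with 2 overlapping genes in the annotation, so its level is uncertain. Apart from GABARAP, listed at a mean of 0.441 RPKM, the family members spanned a mean level from 8.28 RPKM for GABARAPL2 to 27.3 RPKM for MAP1LC3B.

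**Figure D2:**
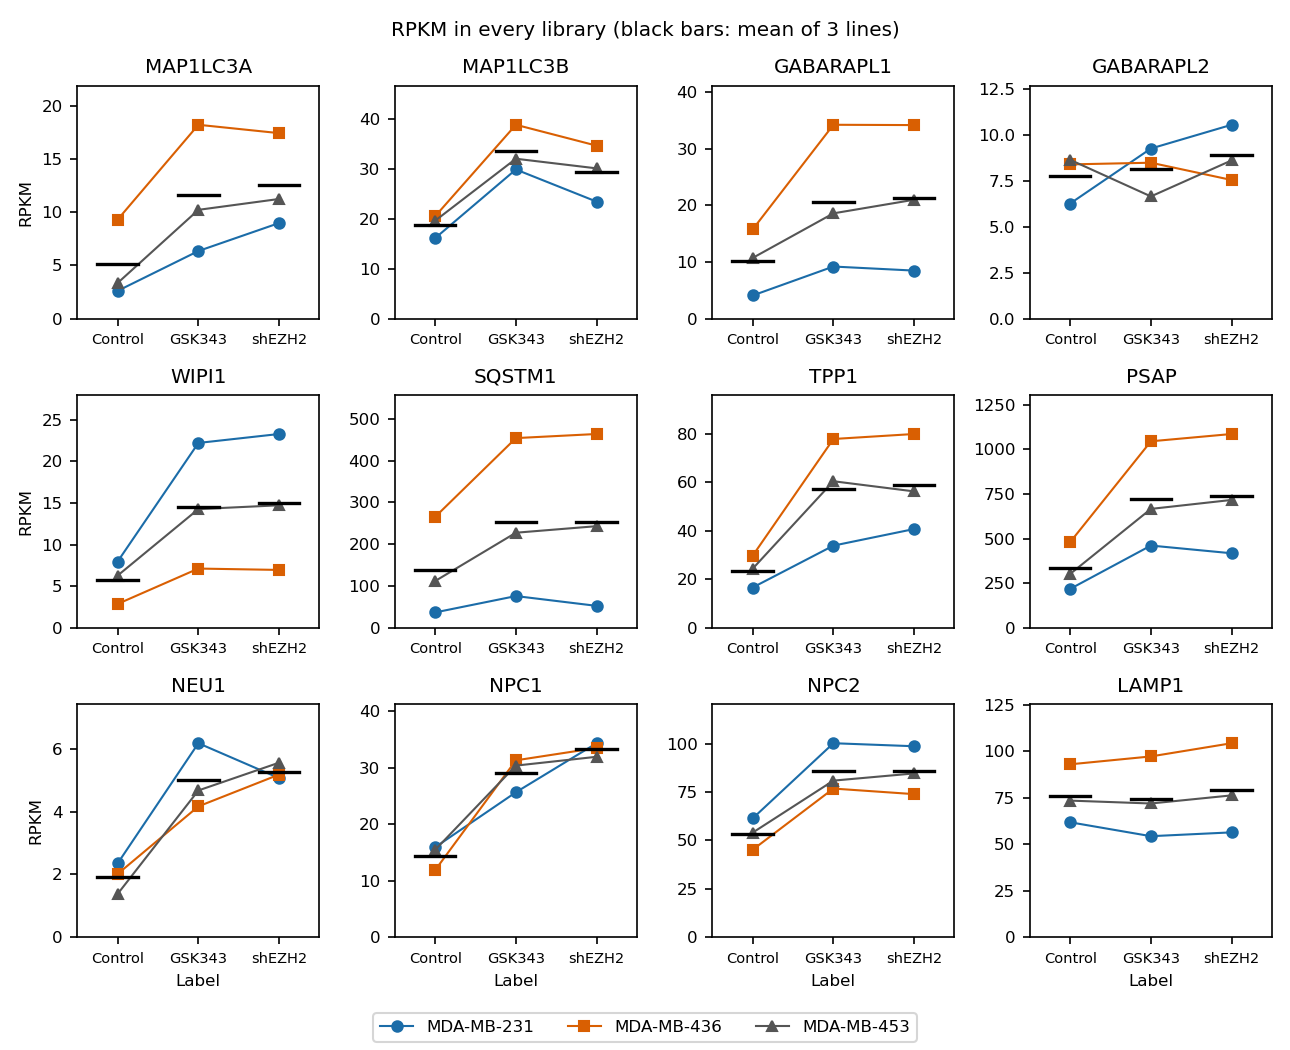
RPKM of 12 members in every library (vertical axes from 0, each with its own scale) by label on the horizontal axis; coloured lines join the 3 libraries of a cell line and black bars are the mean of 3 lines. Lines run upward from control to targeted libraries in MAP1LC3A, MAP1LC3B, GABARAPL1, WIPI1, SQSTM1, TPP1, PSAP, NEU1, NPC1 and NPC2, cross in GABARAPL2 and stay level in LAMP1.

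Of the 3 membrane extension genes WIPI1, WIPI2 and ATG2A, all but WIPI2 rose. WIPI1, which binds the lipid that marks the forming membrane (chromosome 17, 68420948 to 68457513, minus strand), was at 7.96, 2.87 and 6.28 RPKM in the controls, 22.2, 7.12 and 14.3 under the GSK343 label and 23.3, 6.95 and 14.7 under the shEZH2 label. The line order was the reverse of that of GABARAPL1, with MDA-MB-436 lowest in each condition. WIPI1 rose by 1.18 ± 0.26 (adjusted p = 0.000265, limma), and 28.1% of its exon bases overlap another gene, mainly ARSG. Its relative WIPI2 was between 12.4 and 30.9 RPKM and did not pass (0.14 ± 0.25).

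ATG2A, a lipid transfer protein that works with WIPI proteins, was at 15.2, 11.4 and 9.28 RPKM in the controls, 17.4, 27.3 and 21.6 under the GSK343 label and 22.1, 25.8 and 23.7 under the shEZH2 label. All targeted libraries were above all controls, though MDA-MB-231 moved by 0.35 on the log2 scale and the other lines by 1.15 and 1.20. ATG2A rose by 0.90 ± 0.36 (adjusted p = 0.00514, limma). The call was lost without the control labelled MDA-MB-453 and without all libraries of that label, where the value was 0.75 (adjusted p = 0.098).

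Of the 4 cargo receptors among the members, 3 rose. SQSTM1 (p62, which carries ubiquitinated cargo) had the highest mean level of the autophagosome genes and was at 36.9, 266 and 112 RPKM in the controls, 76.1, 454 and 228 under the GSK343 label and 52.6, 464 and 243 under the shEZH2 label. Libraries of MDA-MB-231 were lowest in every condition, and the shift within lines was 0.87 ± 0.31 (adjusted p = 0.00321, limma; 0.0606 without the MDA-MB-453-labelled libraries). Exons of SQSTM1 share 22.0% of their bases with MRNIP and MGAT4B.

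OPTN, a receptor for damaged mitochondria and bacteria, had similar levels in the lines, at 23.5, 22.5 and 25.2 RPKM in the controls, 40.6, 40.6 and 39.5 under the GSK343 label and 44.6, 38.1 and 42.0 under the shEZH2 label. The lowest targeted library stood well above the highest control, and OPTN rose by 0.76 ± 0.25 (adjusted p = 0.00197, limma). NBR1 was at 16.4, 8.38 and 16.7 RPKM in the controls, 21.8, 14.7 and 19.1 under the GSK343 label and 30.4, 14.2 and 21.7 under the shEZH2 label. It rose by 0.54 ± 0.29 (adjusted p = 0.0202, limma), but the call was lost without the MDA-MB-231 control, the MDA-MB-436 control or the MDA-MB-231 library labelled shEZH2, and without any 1 of the lines. TAX1BP1, the remaining receptor, was higher in MDA-MB-231 and MDA-MB-436 and lower under the MDA-MB-453 label (0.15 ± 0.31, adjusted p = 0.497).

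The other autophagosome genes, which start the membrane or conjugate ATG8 proteins, did not pass. The kinase ULK1 was at 0.39 ± 0.31 (adjusted p = 0.0825, limma), BECN1 of the lipid kinase complex at 0.13 ± 0.24, its partner ATG14 at 0.16 ± 0.29, and ATG9A, which supplies membrane and shares 38.8% of its exon bases with another gene, at 0.20 ± 0.27. The only negative fold changes in the role belonged to conjugation enzymes: ATG3 (-0.25 ± 0.26), which hands ATG8 to the lipid, ATG7 (-0.25 ± 0.31), which activates ATG8 and ATG12, and ATG5 (-0.23 ± 0.28), the acceptor of ATG12. ATG3 and ATG5 were below the control in the mean of both labels in 3 of 3 lines, while ATG7 was above it in MDA-MB-231 by 0.17 and below it by 0.48 and 0.44 in the others. ATG12 (0.13 ± 0.27) and ATG16L1 (0.08 ± 0.24) of the same system were slightly positive.

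Of the 14 lysosomal enzyme genes 8 rose. All 14 had a positive mean fold change and were positive in MDA-MB-436 and under the MDA-MB-453 label, and 13 were positive in MDA-MB-231. Over all genes tested, 61.5% were positive in MDA-MB-436, 53.7% under the MDA-MB-453 label and 51.7% in MDA-MB-231. The share of all genes with a positive mean fold change was not counted. The RPKM summed over the 14 genes was 795, 1098 and 725 in the controls, 1181, 2017 and 1480 under the GSK343 label and 1171, 2082 and 1545 under the shEZH2 label. Each line was higher than its own control, and all 6 targeted sums were above all 3 control sums. Much of this sum was PSAP, which made up 16.7% to 24.7% of the RPKM of all 48 members in the controls and 22.3% to 32.5% in the targeted libraries.

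PSAP encodes prosaposin, the precursor of the saposins, which are activators of lipid hydrolases rather than enzymes (chromosome 10, 71816298 to 71851375, minus strand). It was at 218, 481 and 302 RPKM in the controls, 461, 1046 and 667 under the GSK343 label and 418, 1087 and 717 under the shEZH2 label. Its rank among all genes by RPKM went from 113, 41 and 56 to 37, 22 and 28 under the GSK343 label and 39, 22 and 28 under the shEZH2 label. PSAP rose by 1.11 ± 0.29 (2.16-fold, adjusted p = 0.000591, limma), and every targeted library was at least 0.93 above the control of its line on that scale.

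TPP1, a serine peptidase whose loss causes a neuronal storage disease (chromosome 11, 6612763 to 6619485, minus strand), had the smallest adjusted p of the members. It was at 16.6, 29.7 and 24.4 RPKM in the controls, 33.9, 77.8 and 60.4 under the GSK343 label and 40.7, 79.8 and 56.2 under the shEZH2 label. All targeted libraries were above all controls, and TPP1 rose by 1.24 ± 0.26 (2.36-fold, adjusted p = 0.000239, limma; 0.0156 without the MDA-MB-453-labelled libraries).

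Among the enzymes that degrade glycans, the sialidase NEU1 (chromosome 6, 31857659 to 31862906, minus strand) was at 2.35, 2.01 and 1.38 RPKM in the controls, 6.18, 4.17 and 4.68 under the GSK343 label and 5.07, 5.18 and 5.56 under the shEZH2 label. No targeted library came near a control, and NEU1 rose by 1.08 ± 0.30 (adjusted p = 0.000914, limma). On the scale of RPKM + 1 this is 2.12-fold, which understates the change of the low RPKM themselves. NAGLU, which degrades heparan sulfate, was at 10.9, 10.2 and 7.15 RPKM in the controls, 15.8, 16.5 and 12.6 under the GSK343 label and 15.6, 15.6 and 14.6 under the shEZH2 label. These groups did not overlap either, and NAGLU rose by 0.65 ± 0.26 (adjusted p = 0.00584, limma; 0.0697 without the MDA-MB-453-labelled libraries).

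GUSB, the beta-glucuronidase, was at 21.1, 37.2 and 26.2 RPKM in the controls, 20.8, 57.5 and 36.1 under the GSK343 label and 28.1, 59.7 and 40.6 under the shEZH2 label. The MDA-MB-231 library labelled GSK343 was level with its control, and the other 5 targeted libraries were above theirs. GUSB rose by 0.45 ± 0.28 (adjusted p = 0.0345, limma). This call was among the least secure of the members: it was lost on leaving out any single library other than the MDA-MB-231 control or the MDA-MB-231 library labelled GSK343. Of the remaining glycosidases, GLB1 (0.35 ± 0.27), GLA (0.29 ± 0.28), HEXA (0.30 ± 0.26) and the sulfatase SGSH (0.21 ± 0.32) did not pass. Under the shEZH2 label alone, GLB1 passed narrowly (0.49 ± 0.31, adjusted p = 0.0486, limma).

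Cathepsins degrade proteins, and 3 of the 5 members with this name rose (CTSB, CTSD and CTSZ). CTSB was at 27.6, 105 and 52.0 RPKM in the controls, 38.5, 155 and 74.4 under the GSK343 label and 42.2, 144 and 89.7 under the shEZH2 label. Its shift was alike in the lines, at 0.53, 0.51 and 0.64, and it rose by 0.56 ± 0.26 (adjusted p = 0.0104, limma). The call was lost without the MDA-MB-453-labelled libraries (adjusted p = 0.0794) and without those of MDA-MB-231. CTSD, the aspartic cathepsin, was at 213, 116 and 84.8 RPKM in the controls, 240.3, 182 and 249 under the GSK343 label and 249, 194 and 203 under the shEZH2 label. The targeted levels were close to each other while the controls were spread, so the shift went from 0.20 in MDA-MB-231 to 0.69 in MDA-MB-436 and 1.40 under the MDA-MB-453 label. CTSD rose by 0.76 ± 0.42 (adjusted p = 0.0215, limma), but without the control labelled MDA-MB-453 the call was lost, as it was without the control of MDA-MB-436, and without all MDA-MB-453-labelled libraries the value was 0.44 (adjusted p = 0.181). In addition, 52.7% of CTSD exon bases are shared with overlapping transcripts.

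CTSZ, a carboxypeptidase, was at 167, 76.2 and 68.9 RPKM in the controls, 222, 87.5 and 147 under the GSK343 label and 243, 92.5 and 164 under the shEZH2 label. It was highest in MDA-MB-231 and moved most under the MDA-MB-453 label (1.16, against 0.47 and 0.24). CTSZ rose by 0.62 ± 0.36 (adjusted p = 0.0245, limma), and the call was lost without the MDA-MB-453-labelled control, without the GSK343 library of that line and without the libraries of MDA-MB-231. Without all MDA-MB-453-labelled libraries the value was 0.36 (adjusted p = 0.191). CTSL missed the threshold (0.57 ± 0.40, adjusted p = 0.055, limma). Its control and shEZH2-labelled values in MDA-MB-231, 27.4 and 22.5 RPKM, ran opposite to the 148 and 276 RPKM of MDA-MB-436.

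**Figure D3:**
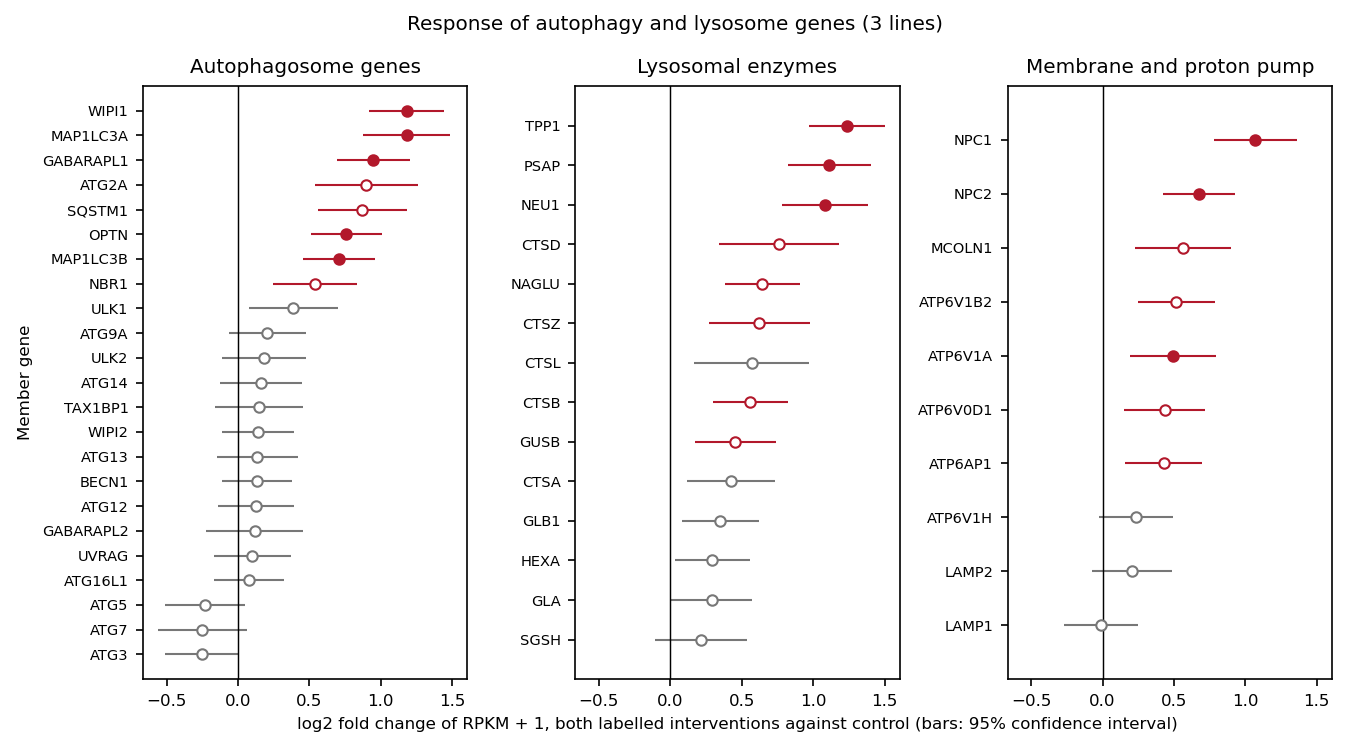
Log2 fold change of RPKM + 1 in the targeted libraries against the controls for the 47 tested members, by role. Bars are 95% confidence intervals of the fit to all 9 libraries from 3 lines. Red marks the 23 members with an adjusted p under 0.05, filled where the call was also made without the MDA-MB-453-labelled libraries (11 members), and grey the 24 that did not pass.

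Among membrane and pump genes, the cholesterol carriers moved most. NPC1, the membrane protein that exports cholesterol from the lysosome (chromosome 18, 23506184 to 23586898, minus strand), was at 15.9, 11.9 and 15.4 RPKM in the controls, 25.6, 31.3 and 30.4 under the GSK343 label and 34.3, 33.5 and 31.9 under the shEZH2 label. NPC2, its soluble partner in the lumen, was at 61.4, 45.2 and 54.1 RPKM in the controls, 100.3, 76.9 and 81.0 under the GSK343 label and 98.8, 74.0 and 84.7 under the shEZH2 label. For both genes all targeted libraries lay above all controls. NPC1 rose by 1.07 ± 0.29 (2.10-fold, adjusted p = 0.000794, limma) and NPC2 by 0.67 ± 0.25 (1.59-fold, adjusted p = 0.0038).

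LAMP1, a common lysosome marker, had the highest mean level of this role and did not pass. It was at 61.8, 93.0 and 73.5 RPKM in the controls, 54.3, 97.3 and 71.9 under the GSK343 label and 56.4, 104 and 76.3 under the shEZH2 label. MDA-MB-231 was a little below its control and MDA-MB-436 a little above, and the mean difference was -0.01 ± 0.26 (adjusted p = 0.962, limma), an interval that does not reach the value of NPC1. LAMP2 was between 24.6 and 46.7 RPKM and did not pass (0.21 ± 0.28). MCOLN1, a calcium channel of the lysosome, was at 14.6, 11.1 and 7.89 RPKM in the controls, 18.2, 16.6 and 18.0 under the GSK343 label and 14.3, 17.0 and 15.6 under the shEZH2 label. The MDA-MB-231 library labelled shEZH2 was level with its control. MCOLN1 rose by 0.56 ± 0.34 (adjusted p = 0.0302, limma). The call was lost without the MDA-MB-436 control, without the MDA-MB-436 library labelled shEZH2, or without any 1 library labelled MDA-MB-453. Without all 3 MDA-MB-453-labelled libraries it was at 0.34 (adjusted p = 0.244).

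Of 5 V-ATPase genes and subunits among the members, 4 passed, each by a modest margin. The catalytic subunit ATP6V1A was at 8.25, 19.7 and 20.3 RPKM in the controls, 12.9, 34.3 and 21.2 under the GSK343 label and 14.04, 32.2 and 22.8 under the shEZH2 label. It moved by 0.65 and 0.73 in MDA-MB-231 and MDA-MB-436 and by 0.11 under the MDA-MB-453 label, and rose by 0.49 ± 0.30 over the 3 lines (adjusted p = 0.0317, limma). ATP6V1B2, its partner in the catalytic ring, was at 11.6, 21.3 and 20.6 RPKM in the controls, 19.98, 34.9 and 24.8 under the GSK343 label and 17.5, 32.1 and 25.6 under the shEZH2 label, and had the same order of lines (0.64, 0.63 and 0.28). It rose by 0.52 ± 0.27 (adjusted p = 0.0167, limma).

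ATP6V0D1, which joins the membrane part of the pump to its stalk, was at 12.5, 21.3 and 12.6 RPKM in the controls, 17.2, 27.7 and 22.8 under the GSK343 label and 13.2, 25.9 and 20.3 under the shEZH2 label. The accessory protein ATP6AP1 was at 41.8, 68.3 and 40.9 RPKM in the controls, 49.2, 82.5 and 63.6 under the GSK343 label and 55.6, 84.7 and 68.4 under the shEZH2 label. Both moved most under the MDA-MB-453 label (0.73 and 0.68), the opposite of the catalytic subunits. Each rose by 0.43, with intervals of ± 0.28 and ± 0.27 (adjusted p = 0.0401 and 0.0372, limma). ATP6V1H, a regulatory subunit, did not pass (0.24 ± 0.26, adjusted p = 0.187).

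The pump calls depended on single libraries. ATP6V0D1 and ATP6AP1 each lost the call in 7 of 9 fits that left out 1 library: ATP6V0D1 kept it without the MDA-MB-231 control or the MDA-MB-231 library labelled shEZH2, and ATP6AP1 without the MDA-MB-436 control or the MDA-MB-231 library labelled GSK343. Without all MDA-MB-453-labelled libraries they were at 0.29 and 0.30 (adjusted p = 0.237 and 0.204). ATP6V1A lost its call without any 1 of the 6 libraries of MDA-MB-436 and MDA-MB-231 and was at 0.69 (adjusted p = 0.0478) without the MDA-MB-453-labelled libraries. ATP6V1B2 lost its call without the MDA-MB-231 control or the MDA-MB-436 control, and stood at 0.64 (adjusted p = 0.0505) without the MDA-MB-453-labelled libraries. For the other members that rose, the single libraries that ended a call are named beside the gene, and for WIPI1, MAP1LC3A, GABARAPL1, MAP1LC3B, OPTN, SQSTM1, CTSB, TPP1, PSAP, NEU1, NAGLU, NPC1 and NPC2 no single library did.

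Each label was also compared with the controls on its own; both comparisons use the same 3 control libraries. Under the GSK343 label 17 members rose and 0 fell, where 6.25% of all genes tested were higher and 1.6% lower. These were 7 autophagosome genes, 5 enzymes and 5 membrane and pump genes, and 25 members were higher and 0 lower at an unadjusted p under 0.05, where 17.6% of all genes were higher and 8.24% lower. Under the shEZH2 label 18 rose and 0 fell, where 8.35% of all genes were higher and 2.28% lower: 8 autophagosome genes, 8 enzymes and 2 membrane and pump genes. At an unadjusted p under 0.05, 27 were higher and 1, ATG3, was lower, where 19.2% of all genes were higher and 9.36% lower. Without the libraries labelled MDA-MB-453 the counts were 3 (0.3212% of all genes) and 1 (0.1526% of all genes). In these single-label comparisons, some calls were lost on leaving out any 1 of the 9 libraries. They were those of CTSB and ATP6V0D1 under the GSK343 label and of GLB1 under the shEZH2 label.

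The values of the leading members were close under both labels. The shared control of each line favours such closeness, and these members were chosen by the comparison of both labels together. With the GSK343 label first and the shEZH2 label second, TPP1 was at 1.21 ± 0.31 and 1.27 ± 0.31, WIPI1 at 1.17 ± 0.30 and 1.20 ± 0.30, PSAP at 1.11 ± 0.34 and 1.12 ± 0.34, and MAP1LC3A at 1.10 ± 0.35 and 1.27 ± 0.35. Tested directly, the libraries labelled GSK343 and shEZH2 differed in 0 members (limma), with 0 members (2.28% of all genes) at an unadjusted p under 0.05, and 0% of all genes were called higher and 0% lower. The direct differences ran from -0.28 for GLB1 to 0.20 for ATP6V0D1, with intervals of ± 0.28 to ± 0.48, so differences of that size remain possible for single genes. The smaller number of pump genes called under the shEZH2 label is accordingly not a tested difference: MCOLN1 was at 0.64 ± 0.39 and 0.48 ± 0.39 and ATP6V1B2 at 0.56 ± 0.31 and 0.47 ± 0.31.

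Line by line, 41, 43 and 38 of the 47 members were higher in the mean of the targeted libraries than in the control, taking MDA-MB-231 first, MDA-MB-436 next and the MDA-MB-453 label last. Over all genes tested the shares higher were 51.7%, 61.5% and 53.7%. The members' medians were 0.26, 0.43 and 0.45 on the log2 scale, against 0.01, 0.10 and 0.05 for all genes tested. Autophagosome genes had their highest median in MDA-MB-436 (0.35, against 0.22 and 0.16), and enzymes under the MDA-MB-453 label (0.74, against 0.34 and 0.57). The difference of the responses of MDA-MB-436 and MDA-MB-231 was tested in a model with a mean per line and state (3 residual degrees of freedom). Its spread came only from the difference between the GSK343 and shEZH2 labels within a line, with a single control library per line. Its p-values and intervals therefore do not measure how a line's response varies between replicates. It passed for 0 members (limma), where 0.0386% and 0.0154% of all genes were called higher and lower. At an unadjusted p under 0.05 there were 5 of 47 members, a smaller share than the 18.2% of all genes, so the count is not a result about the members. They were ATG2A (0.81 ± 0.54), SGSH (0.63 ± 0.46) and ATG13 (0.50 ± 0.45) with the more positive response in MDA-MB-436, and ATG7 (-0.66 ± 0.42) and GABARAPL2 (-0.64 ± 0.58) with the more positive one in MDA-MB-231.

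Levels of the members differed between MDA-MB-436 and MDA-MB-231 irrespective of treatment. Here the differently labelled libraries of a line stood as its replicates. Of 47 members, 23 were higher in MDA-MB-436 and 8 lower (limma, 9 libraries), where 34.8% and 28.6% of all genes were. Cathepsin L (CTSL) averaged 29.4 RPKM in MDA-MB-231 and 233 RPKM in MDA-MB-436, a difference of 2.92 ± 0.47 on the log2 scale (adjusted p = 3.18e-07). SQSTM1 followed at 55.2 and 394 RPKM (2.83 ± 0.36), CTSB at 1.87 ± 0.30 and GABARAPL1 at 1.80 ± 0.29. In the opposite direction, WIPI1 averaged 17.8 RPKM in MDA-MB-231 and 5.65 in MDA-MB-436 (-1.44 ± 0.30, adjusted p = 3e-06, limma), CTSZ was lower by 1.28 ± 0.41 in MDA-MB-436 and NBR1 by 0.82 ± 0.34. Of the pump subunits, ATP6V1A, ATP6V1B2, ATP6V1H, ATP6V0D1 and ATP6AP1 were all higher in MDA-MB-436, by 0.68 to 1.22. NPC1, MCOLN1, NEU1 and NAGLU did not pass in this comparison.

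**Figure D4:**
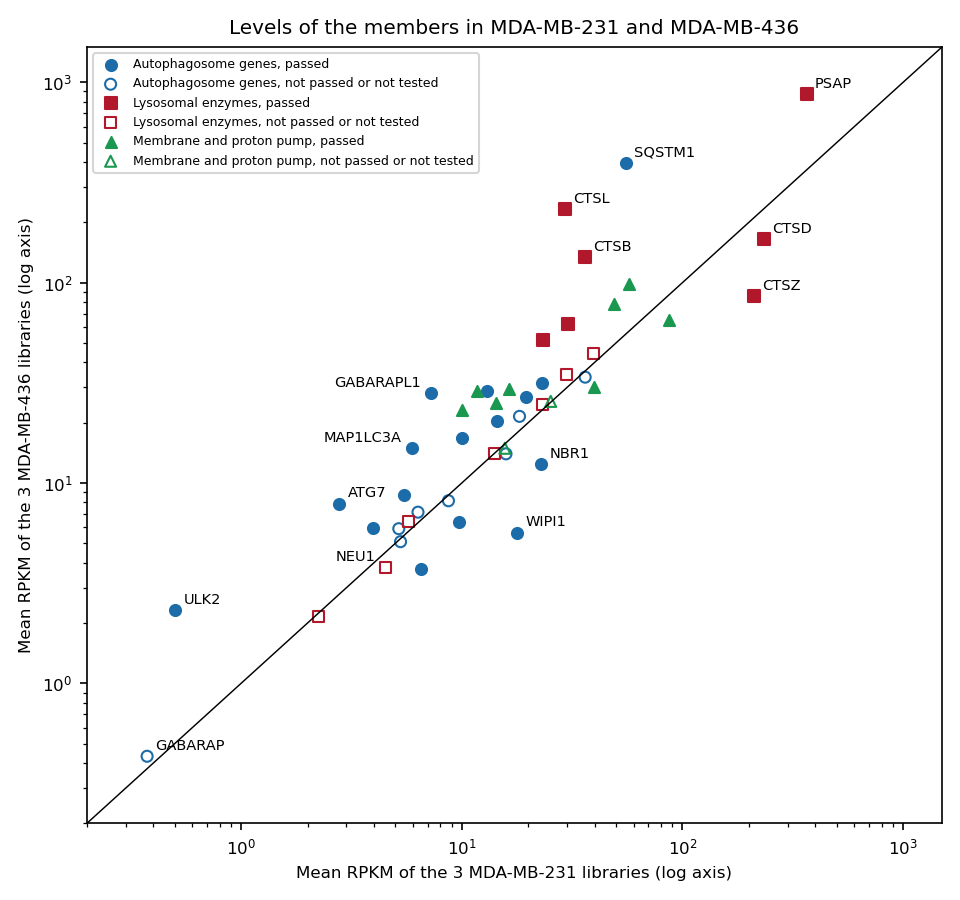
Mean RPKM of the 48 members over the 3 libraries of MDA-MB-231 (horizontal, log axis) and of MDA-MB-436 (vertical, log axis), with the line of equal levels; shapes mark the role, and filled symbols the 31 members with an adjusted p under 0.05. SQSTM1 and CTSL stand farthest above the line and WIPI1 and CTSZ farthest below it.

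All 48 members together made up 0.492%, 0.676% and 0.533% of the RPKM total in the controls. Their share was 0.629%, 1.22% and 0.845% under the GSK343 label and 0.695%, 1.24% and 0.926% under the shEZH2 label. Every targeted library had a higher share than the control of its line, and the targeted libraries of MDA-MB-231 overlapped the control of MDA-MB-436.

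Other genes of the pathway, listed with earlier results of these data known, were counted in the same comparison of targeted libraries and controls (limma). Of 33 other tested autophagy genes 6 rose and 0 fell, with a list median of 0.28. They included TP53INP2 (0.98 ± 0.31), which helps recruit LC3 to the membrane, the ATG8 protease ATG4A (0.56 ± 0.25), the WIPI family member WDR45 (0.57 ± 0.32) and the tethering protein TECPR1 (0.44 ± 0.28). Of 33 other lysosomal enzymes and activators 18 rose and 0 fell, with a median of 0.50. The smallest p-values were those of cathepsin S (CTSS, 1.47 ± 0.32), acid ceramidase (ASAH1, 1.14 ± 0.26), the ganglioside activator GM2A (0.87 ± 0.27) and acid alpha-glucosidase (GAA, 1.06 ± 0.37). Of 27 other membrane and pump genes 12 rose and 0 fell, with a median of 0.29, among them the V-ATPase subunits ATP6V0A1 (0.87 ± 0.27) and ATP6V1F (0.95 ± 0.36) and the lysosomal channels TMEM175 (0.88 ± 0.31) and TPCN1 (1.08 ± 0.43). The background for these counts is the same 12.2% higher and 4.3% lower.

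Sorting and control genes were counted in the same way. Of 10 genes that carry enzymes to the lysosome 2 rose, GNPTG (0.53 ± 0.29), a subunit of the enzyme that makes the mannose 6-phosphate tag, and the tag's receptor IGF2R (0.47 ± 0.31). Of 26 regulators 3 rose (11.5%, near the 12.2% of all genes), the nutrient-sensing GTPase RRAGD (0.89 ± 0.30), the transcription factor FOXO1 (0.68 ± 0.31) and FLCN (0.55 ± 0.27), which acts on Rag GTPases. The transcripts of the factors that bind the CACGTG element did not pass: TFEB was at 0.604 to 2.53 RPKM (0.34 on the log2 scale, adjusted p = 0.141, limma), TFE3 at 31.9 to 60.1 RPKM (0.29, adjusted p = 0.152), and MITF at 4.23 to 6.92 RPKM (0.18, adjusted p = 0.348). TFEC did not exceed 0.0559 RPKM and was not tested. The activity of these factors is set largely at the protein level, which was not measured here.

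Without the libraries labelled MDA-MB-453, 1 other autophagy gene, 4 other enzymes, 1 other membrane or pump gene, 0 sorting genes and 1 regulator were called higher, where 1.253% of all genes were. Among them were TP53INP2, CTSS, ASAH1, GM2A and RRAGD, named above, and SLC17A5, named here after its values were seen.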

How the data were processed

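The authors deposited 1 table of RPKM for 58037 genes and 9 columns, all used (0 unused columns). Per the submitters' processing notes, STAR, HTSeq and the genome build GRCh38 were used; their versions, the annotation and the strand setting were not given in the sources used here. Overlapping genes are therefore uncertain. Multiplied by GENCODE release 29 exon lengths, low values (up to 20 reads) were whole multiples of 1 step per library (100% within 0.05 read), which gave the depths; positions come from the same release, where 41 of the 48 member identifiers had the same version.

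Genes with at least 1 RPKM in at least 3 of 9 libraries (12965) were put on the scale log2(RPKM + 1), and limma 3.58.1 in R 4.3.3 was fitted (treatment and line as terms, trend, two-sided, Benjamini-Hochberg adjustment over all genes tested, threshold 0.05). The additive fit has 4 residual degrees of freedom. It was run on simulated data with independent noise in every library and the same shift in all lines. Such data cannot show the effect of a response shared by both targeted libraries of a line. Lines pair the libraries by label. Gene-centred correlations were 0.358 to 0.953 within lines and -0.914 to 0.0903 between libraries that differ in line and label. Between lines under the same label they were -0.957 to -0.0102. The within-line values were 0.358, 0.364 and 0.487 under the MDA-MB-453 label and at least 0.863 in MDA-MB-231 and MDA-MB-436. Centring each gene over the libraries pushes correlations between lines towards negative values by construction. Members and lists were chosen with earlier results of these data known. Library values are printed for members past the threshold against both interventions, the ATG8 family and the highest member per role, and up to 4 genes per other list are named by smallest p. ATG8 protein identity was not analysed here. Values of some genes outside the member list are not reported here. Alternatives were pseudocounts, filters, scalings, moderation, the replicate block, and leaving out libraries or lines.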

Additional observations from a re-analysis of the deposited data

How the results depend on the processing

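Over 1405 combinations of a called member and an alternative, 1068 kept the call, 337 lost it and none changed sign. These include the levels compared between MDA-MB-436 and MDA-MB-231, where 28 to 31 of 31 calls were kept under each alternative. Among the treatment calls alone the share kept was lower. Members that had not passed changed sign in 123 of 3142 combinations and passed in 0 of those 123. Counts of members that rose under the GSK343 label, the shEZH2 label and both together were 17, 18 and 23, against 6.25%, 8.35% and 12.2% of all genes. With no filter on low values (36845 genes tested) they were 2, 2 and 10, against 0.0353%, 0.0407% and 0.434% of all genes. Without the replicate block, that is without pairing by line, they were 0, 0 and 0, where 2, 2 and 3 genes in all were called higher. Leaving out 1 library or 1 line gave 3 to 16, 1 to 18 and 11 to 22, and the shares of all genes also varied, from 0.3212% to 7.02%, 0.1526% to 9.18% and 1.253% to 10.9%. Under the GSK343 label the lower counts were 10 and 11 without its MDA-MB-436 and MDA-MB-453-labelled libraries, and 11 without the line MDA-MB-231, 10 without MDA-MB-436 and 3 without MDA-MB-453. Under the shEZH2 label they were 9 without its MDA-MB-453-labelled library, and 10 and 1 without the lines MDA-MB-231 and MDA-MB-453. For both labels together the count was 11 without the MDA-MB-453-labelled libraries. Rescaling to a common sum gave 13, 17 and 19 (4.39%, 7.88% and 9.99% of all genes), and rescaling by median ratios 14, 16 and 21 (5.01%, 7.24% and 10.8%). With a wider margin around the range, 38 members of the MDA-MB-453-labelled control lay between the other lines, in place of 24, and 75.8% of all genes did; under the GSK343 and shEZH2 labels 45 and 47 members did, with 96.3% and 98.3% of all genes. Apart from what the construction shows (fewer libraries, more genes tested), the cause was not tested.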
